A study of Gallus gallus with 6 samples.

Results

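Head mesenchyme transcription factors were followed in chick head ectoderm cells that overexpressed Sox8. The set held 9 genes out of the 24356 in the count table: TWIST1 and TWIST2, ALX1 and ALX4, PRRX1 and PRRX2, PITX1, TCF21 and MEOX1. They were found by gene name, and each name matched 1 gene. The genes were chosen with their Sox8OE against Control difference already known, so that difference is described here and is not tested.

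Head mesenchyme is the loose tissue under the head ectoderm, formed from cranial mesoderm and from neural crest cells that have left the neural tube. TWIST1 and TWIST2 are basic helix-loop-helix factors that hold cells in a mesenchymal state, whereas ALX1, ALX4, PRRX1, PRRX2 and PITX1 are paired-type homeodomain factors that pattern the mesenchyme of the face and jaws. TCF21 marks mesoderm that forms head muscle, and MEOX1 is a homeodomain factor of somites and other paraxial mesoderm.

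The study asked how far Sox8, a SoxE transcription factor, moves head ectoderm towards ear identity. Chick embryos were electroporated ex ovo at head fold stages and kept at 38 °C for 16 to 24 h, and the endogenous otic placode was taken out of the heads. Sox8OE cells carried pCES-Sox8-mCherry with pTK-Lmx1aE1-EGFP, whose EGFP is driven by an otic enhancer, and Control cells carried pCES-mCherry with pCES-EGFP. Cells positive for both colours were sorted in each group, 3 samples per group, and sequenced as paired reads of 75 bases. Sox8OE cells were therefore picked by otic enhancer activity and Control cells were not, so an effect of Sox8 and an effect of that selection cannot be told apart. The number of sorted cells is 4000 in the series description and differs in the methods, which call the replicates biological.

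Total counts were 26326573 to 46586658 per library. SOX8 itself stood at 854, 1685 and 968 normalised counts in the Control libraries and at 8554, 9889 and 9138 in the Sox8OE libraries, a log2 fold change of 2.97 ± 0.36 (SE). Normalised counts are read counts divided by a size factor that brings the libraries to a common depth. Sox8OE replicate 1 stood apart from the other Sox8OE libraries: its correlation with the Control libraries was 0.980 to 0.984, against 0.944 and 0.959 with Sox8OE replicates 2 and 3. Values without it are given where they change a result. Ribosomal protein genes took 4.94 to 6.74% of the Control counts, 5.17% of those of Sox8OE replicate 1, and 10.6% and 8.13% of those of the other two Sox8OE libraries; the part of these differences in the results was not tested. Of the surface ectoderm markers, EPCAM, an epithelial adhesion gene, was read in every library at 10127 to 27325 normalised counts and CDH1, the epithelial cadherin, at 201 to 859. TP63, of the same list, was at 322 to 597 in Control and 205 to 315 in Sox8OE. CDH2, a cadherin listed with the neural plate markers, was at 4249 to 6581 over all libraries. These values do not by themselves define the sorted cells as surface ectoderm.

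Of the 9 members, 8 had counts and 8 received an adjusted p in the DESeq2 fit across all genes. TWIST1 and ALX1 were lower in Sox8OE past both of the study's thresholds, and no member was higher past both. The thresholds were 0.05 for the adjusted p and 1.5, in either direction, for the log2 fold change. At an unadjusted p under 0.05, 2 members were higher and 3 lower, and of all genes tested 14.0% and 7.82%. Across the 16032 genes tested, 0.961% were called lower, 3.32% higher and 4.28% in either direction. Without Sox8OE replicate 1, 18.2% of all genes tested were called, and that share stands beside every call gained in that fit. Since the members were picked with this contrast in view, their count is not read against those shares. The median log2 fold change was -0.28 over the 8 members tested and 0.079 over all genes tested, with the members running from -4.44 at ALX1 to 1.43 at MEOX1. In these bulk libraries fewer cells of a type and less RNA per cell cannot be told apart.

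**Figure D1:**
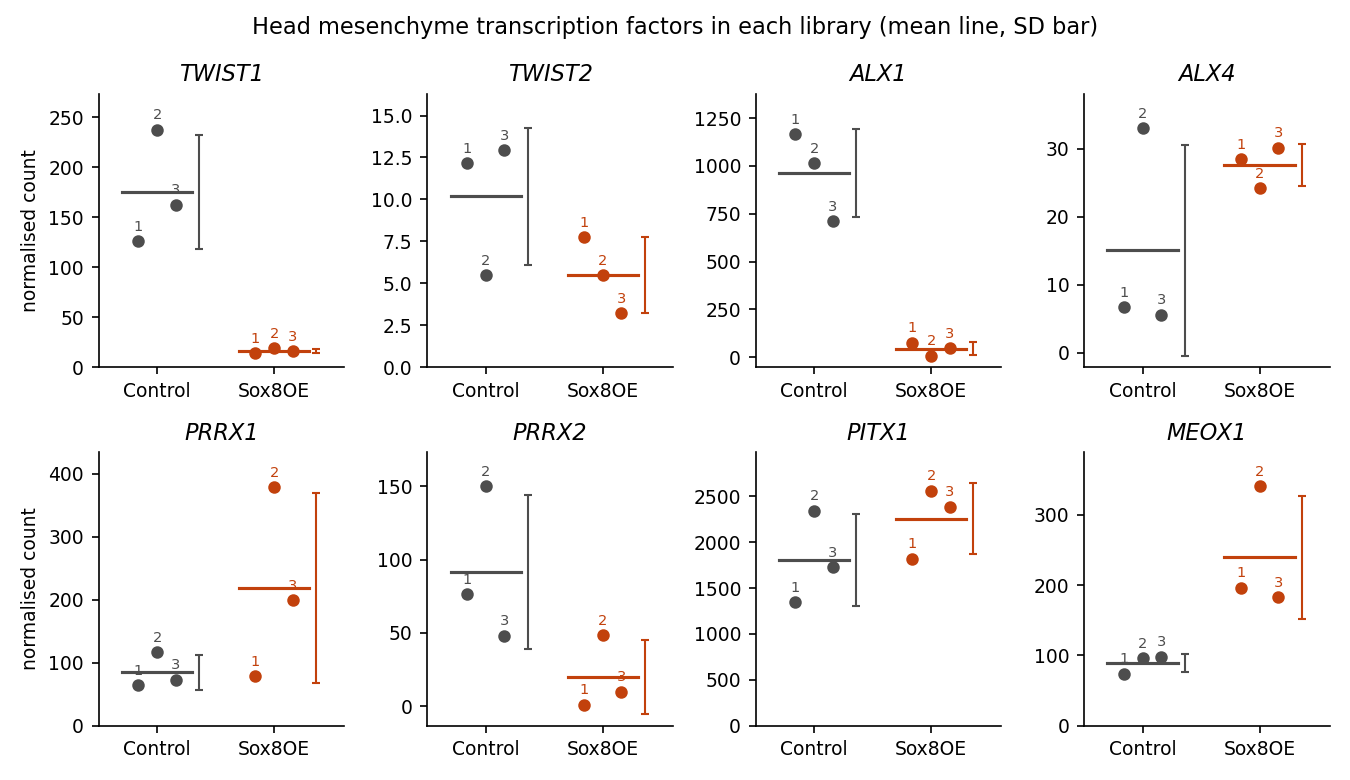
Normalised counts (vertical axes, 1 scale per gene) of the 8 members with counts in the Control libraries (grey) and the Sox8OE libraries (orange); numbers are replicates, lines are means and bars are SD over 3 libraries. TWIST1 and ALX1 lie wholly lower in Sox8OE and MEOX1 wholly higher, while the groups overlap at the other 5 genes.

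TWIST1 (ENSGALG00000041640), needed in mammals for closure of the cranial neural tube and for open skull sutures, stood at 126, 238 and 162 normalised counts in the Control libraries and at 13.8, 18.7 and 16.1 in the Sox8OE libraries. All Sox8OE libraries lay far under all Control libraries, and they lay close together. The group means were 175 ± 57.0 and 16.2 ± 2.45 (SD, n = 3 each), and the log2 fold change was -3.44 ± 0.53 (SE). Between 15 and 17 reads were left in each Sox8OE library, against 114 to 303 in Control. With 16 reads in Sox8OE replicate 1, the exact 95% Poisson interval was 9.15 to 26 reads, which covers counting error only. How PCR copies were treated in the counts is not known here. Leaving out any library gave log2 fold changes from -3.64 to -3.17, and TWIST1 stayed past both thresholds in each of these fits. It was not called by edgeR, with a log2 fold change of -3.41 and an adjusted p of 0.058. Nor was it by limma voom, with -3.37 and an adjusted p of 0.14.

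TWIST2 (ENSGALG00000004274), its paralogue in dermis and other connective tissue, was barely read: 11, 7 and 14 reads in the Control libraries and 9, 5 and 3 in the Sox8OE libraries. In normalised counts these were 12.2, 5.49 and 12.9 against 7.75, 5.49 and 3.23, and the groups overlapped. The log2 fold change was -0.88 ± 1.23 (SE, n = 3 each), with a 95% interval of -3.29 to 1.53, so a difference of either sign was not detectable at this depth. A filter asking for at least 10 reads in at least 3 libraries removed TWIST2.

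ALX1 (ENSGALG00000027213), needed for the frontonasal and periocular mesenchyme, had the largest fold change of the members. It stood at 1165, 1013 and 712 normalised counts in the Control libraries and at 76.7, 7.69 and 48.4 in the Sox8OE libraries. The groups did not overlap, but the Sox8OE libraries differed among themselves far more than at TWIST1: Sox8OE replicate 2 held 7 reads (exact 95% Poisson interval 2.81 to 14.4) and Sox8OE replicate 1 held 89. Means were 963 ± 230.3 and 44.2 ± 34.7 (SD, n = 3 each), and the log2 fold change was -4.44 ± 0.64 (SE). ALX1 was called in each fit tried, and its log2 fold change ran from -5.11 without Sox8OE replicate 1 to -3.95. With edgeR and limma voom its adjusted p of 0.049 and 0.048 lay only just under the threshold.

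ALX4 (ENSGALG00000032584), the relative of ALX1 that acts in the skull vault and the limb bud, was low and did not share that difference. It stood at 6.63, 33.0 and 5.54 normalised counts in the Control libraries and at 28.4, 24.2 and 30.1 in the Sox8OE libraries. Control replicate 2 alone was as high as the Sox8OE libraries, and the groups therefore overlapped. The log2 fold change was 0.86 ± 0.98 (SE, n = 3 each) and was 2.17 without Control replicate 2, where it still was not called.

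**Figure D2:**
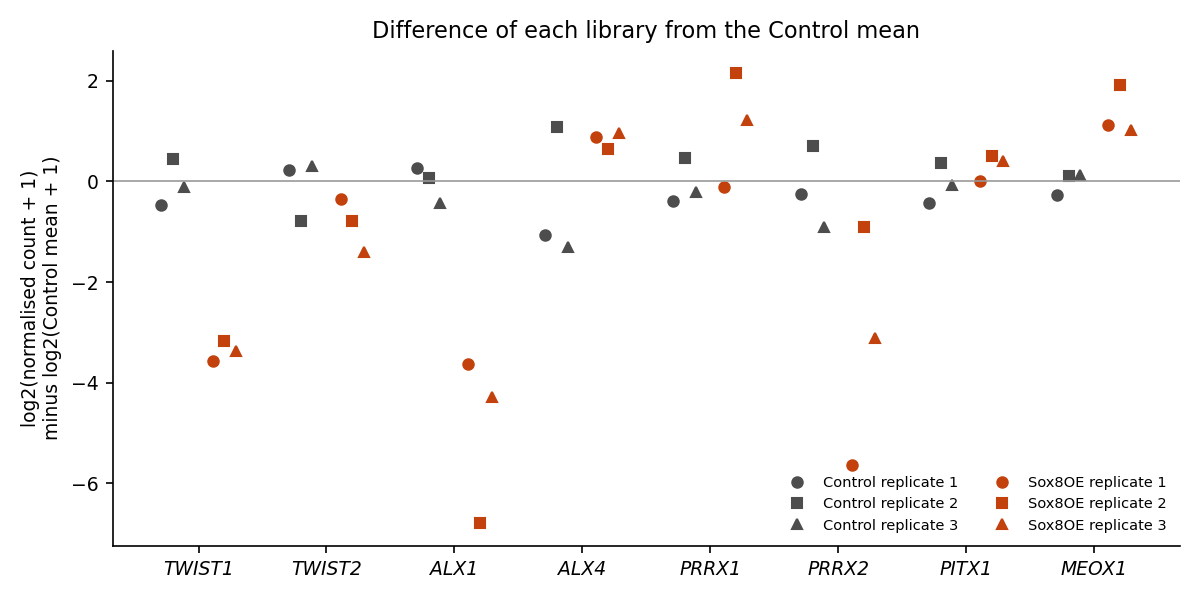
Difference of each library from the Control mean on the log2(normalised count + 1) scale (vertical axis) for the 8 members with counts; grey symbols are Control and orange symbols Sox8OE libraries, with 1 shape per replicate number. TWIST1 holds the Sox8OE libraries between -3.58 and -3.16, while PRRX2 spreads them from -5.63 to -0.90.

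The paired factors PRRX1 and PRRX2, which share roles in jaw and limb mesenchyme, had fold changes of opposite sign. PRRX1 (ENSGALG00000003324) stood at 64.1, 117 and 72.9 normalised counts in the Control libraries and at 78.4, 379 and 199 in the Sox8OE libraries. Sox8OE replicates 2 and 3 lay over every Control library and Sox8OE replicate 1 lay within the Control range. The log2 fold change of 1.37 ± 0.62 (SE, n = 3 each) was not past both thresholds. Without Sox8OE replicate 1 it was 1.76 and past both, as 18.2% of all genes tested were in that fit. It was 0.69 without Sox8OE replicate 2.

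PRRX2 (ENSGALG00000028236) stood at 76.3, 149.9 and 48.0 normalised counts in the Control libraries and at 0.861, 48.4 and 9.68 in the Sox8OE libraries. Sox8OE replicate 1 held a single read of it (exact 95% Poisson interval 0.025 to 5.57), whereas Sox8OE replicate 2, with 44 reads, was level with the lowest Control library, so the groups just overlapped. The log2 fold change of -2.23 ± 1.05 (SE, n = 3 each) was not past both thresholds. It was past both without Sox8OE replicate 2, at -4.18, and was -1.67 without Sox8OE replicate 1. The library that was nearest to Control at PRRX1 was thus the farthest from it at PRRX2.

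PITX1 (ENSGALG00000030237), a factor of the oral ectoderm and the jaw mesenchyme, was read deeply and differed little. It stood at 1345, 2342 and 1729 normalised counts in the Control libraries and at 1818, 2561 and 2388 in the Sox8OE libraries, with overlapping groups. The log2 fold change was 0.32 ± 0.35 (SE, n = 3 each), its 95% interval was -0.37 to 1.01, and the fits with 1 library left out gave 0.14 to 0.54. The interval excludes a fold change of 1.5 on the log2 scale in either direction.

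MEOX1 (ENSGALG00000001191) was the member whose Sox8OE values all lay over Control. It stood at 74.1, 95.7 and 97.8 normalised counts in the Control libraries and at 196, 341 and 183 in the Sox8OE libraries, with means of 89.2 ± 13.2 and 239.9 ± 87.5 (SD, n = 3 each). Its log2 fold change of 1.43 ± 0.45 (SE) passed the adjusted p, as 5.24% of genes tested did, but lay just under the fold threshold of 1.5. The adjusted p was lost in 5 of the 6 fits with a library left out and with edgeR and limma voom. It held only without Sox8OE replicate 1, where the log2 fold change of 1.54 was past both thresholds, as 18.2% of all genes tested were. The lowest log2 fold change, without Sox8OE replicate 2, was 1.08. Complete separation of the groups was common in the table, with 10.1% of genes tested wholly higher in Sox8OE, 9.09% wholly lower and 19.2% one or the other.

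TCF21 (ENSGALG00000029024) had 0 reads in all 6 libraries, which allows up to 3 reads in a library, a one-sided 95% limit, or 0.0644 to 0.114 CPM depending on its depth. It was not tested.

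**Figure D3:**
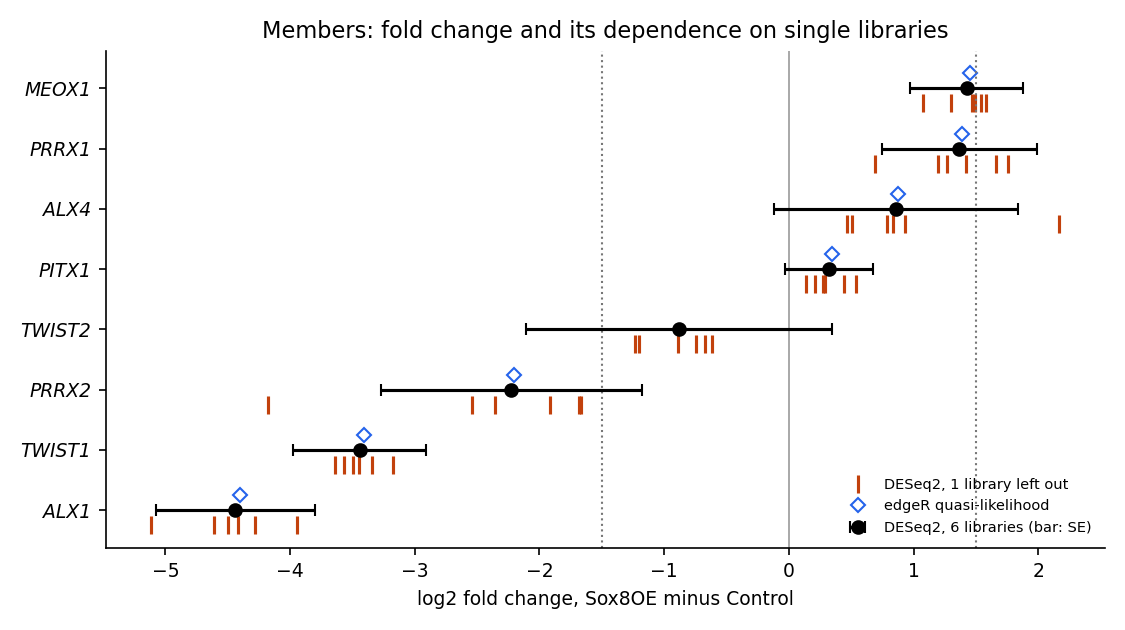
Log2 fold change of Sox8OE over Control (horizontal axis) for the 8 members tested: black points are the DESeq2 fit of 6 libraries with SE bars, orange ticks the fits with 1 library left out, and blue diamonds edgeR, which did not keep TWIST2. Dotted lines mark the fold threshold of 1.5; the ticks of PRRX2 run from -4.18 to -1.67 and those of PRRX1 from 0.69 to 1.76.

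Because scaling between libraries cancels in a ratio of reads within a library, 4 pairs of members were also set against each other, chosen after their values were seen. These ratios compare libraries and not the levels of the genes in a pair, whose lengths were not used. PRRX1 reads per PRRX2 read were 0.841, 0.780 and 1.52 in the Control libraries and 91.0, 7.84 and 20.6 in the Sox8OE libraries. PRRX1 reads per TWIST1 read were 0.509, 0.492 and 0.449 in Control and 5.69, 20.3 and 12.3 in Sox8OE. Every Sox8OE library was higher than every Control library in both ratios. TWIST1 reads per TWIST2 read were 10.4, 43.3 and 12.6 in Control and 1.78, 3.40 and 5.0 in Sox8OE, resting on 3 to 14 reads of TWIST2 per library. MEOX1 reads per ALX1 read were 0.0636, 0.0945 and 0.137 in Control and 2.56, 44.3 and 3.78 in Sox8OE. The direction of these ratios follows from how the pairs were chosen and is given as a description only.

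**Figure D4:**
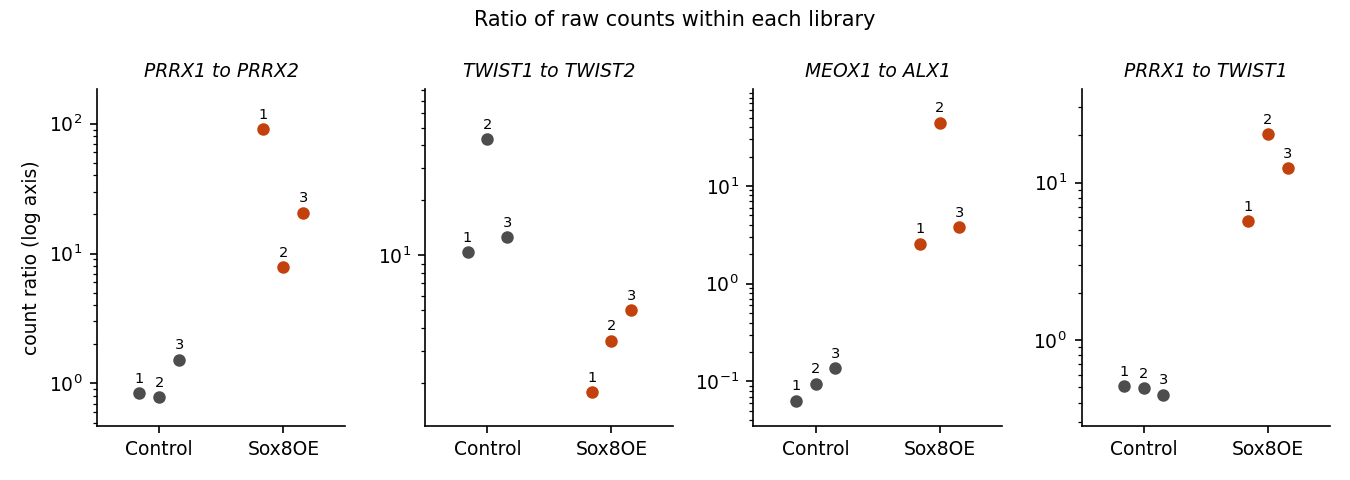
Ratio of raw read counts of 2 members within each library (vertical log axes) for 4 pairs chosen after their values were seen; grey points are Control, orange points Sox8OE, and numbers are replicates. The PRRX1 to TWIST1 ratio is 0.449 to 0.509 in Control and 5.69 to 20.3 in Sox8OE.

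Other transcription factors of mesenchyme changed in both directions. Of 26 listed, 24 were in the table and 16 were tested, of which 3 rose and 3 fell past both thresholds (DESeq2, adjusted over all genes), with a median log2 fold change of 0.28. SNAI1, a repressor of epithelial genes, stood at 2470, 1330 and 1668 normalised counts in Control and fell to 693, 199 and 335 in Sox8OE (-2.15 ± 0.50, adjusted p = 0.0015 by DESeq2). EBF2, a helix-loop-helix factor of mesenchyme and neurons, fell from 454, 439 and 487 to 107, 132 and 97.8 (-2.04 ± 0.35, adjusted p = 1.5e-06), whereas its paralogue EBF3 rose from 253, 308 and 180.0 to 1121, 1229 and 842 (2.11 ± 0.37, adjusted p = 2.8e-06). EBF2 and EBF3 thus moved in opposite directions with separate groups, while PRRX1 and PRRX2, also of opposite sign, were not called. SIM1, a bHLH-PAS factor, fell from 60.8, 31.4 and 32.3 to 0, 4.40 and 0 (-4.88 ± 1.3, adjusted p = 0.0078). In its single-cell data the paper took Twist1 and Sim1 as markers of mesoderm that contaminated the sort. The share of such cells in these libraries was not tested. SIX2, of facial and nephric mesenchyme, rose from 26.5, 23.5 and 16.6 to 33.6, 276 and 129 (2.72 ± 0.76, adjusted p = 0.013), and SCX, the tendon factor, from 4.42, 31.4 and 22.2 to 40.5, 224 and 146 (2.81 ± 0.83, adjusted p = 0.020). At SIX2 and SCX the value of Sox8OE replicate 1 was close to Control.

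Leaving out single libraries ended part of these calls. Calls over all genes, 686 with 6 libraries, also fell in most of these fits. They were 248 and 287 without Control replicates 1 and 3, and 276 and 307 without Sox8OE replicates 2 and 3. Those counts stand beside each call lost in those fits, here and below. EBF2 and EBF3 were called in all 6 such fits, SNAI1 in 5, SIM1 in 3, SCX in 2 and SIX2 in 1. SNAI1 lost its call without Control replicate 1, at an adjusted p of 0.063 by DESeq2. SIM1 was not called without Control replicate 1, Control replicate 3 or Sox8OE replicate 3, with an adjusted p of up to 0.22. SCX was called only without Control replicate 2 or Sox8OE replicate 1, and SIX2 only without Sox8OE replicate 1, and their log2 fold changes over the 6 fits were 2.24 to 3.34 and 1.86 to 3.18. Without Sox8OE replicate 1 the list counted 4 risen and 3 fallen, the added gene being MSX1 at 1.77. EBF3 was the gene of this list called by edgeR, where EBF2 had an adjusted p of 0.064, and limma voom called none. FOXC1, TBX15, MSC and OSR2, which mark head and limb mesenchyme or muscle progenitors, had at most 3 reads in any library, and SHOX2 had none.

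Among 8 tested partners and inhibitors of TWIST factors, the E proteins, HAND factors and ID proteins, 1 gene rose and 0 fell, and the median log2 fold change was 0.79. ID4, which binds helix-loop-helix factors and keeps them off DNA, stood at 48.6, 118 and 44.3 normalised counts in Control and at 77.5, 1114 and 187 in Sox8OE (2.71 ± 0.83, adjusted p = 0.028 by DESeq2). Its groups overlapped, and it was called in 3 of the 6 fits with a library left out: without Sox8OE replicate 2 its log2 fold change was 0.89, and the call was also lost without Control replicate 1 or Control replicate 3. Neither edgeR, with an adjusted p of 0.24, nor limma voom called ID4. HAND2, a partner of TWIST1 in the branchial arches and limb, was at 12.0 to 25.4 in Control and 24.2 to 58.1 in Sox8OE and was not called. HAND1 was at 5.54 to 7.74 in Control and 10.3 to 29.7 in Sox8OE and was not called either.

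Matrix and surface genes of mesenchyme changed in both directions. Of 24 in the table, 23 were tested, 3 rose and 1 fell, and the median log2 fold change was -0.12. FN1, which encodes fibronectin, rose from 2244, 3319 and 2657 to 5981, 11937 and 10419 normalised counts (1.79 ± 0.37, adjusted p = 0.00024 by DESeq2). The fibrillar collagen genes COL5A1 and COL1A1 rose with log2 fold changes of 1.98 ± 0.50 and 2.32 ± 0.68. PDGFRA, a growth factor receptor of mesenchyme, fell from 1140, 706 and 856 to 360.0, 136 and 305 (-1.75 ± 0.45, adjusted p = 0.0057). FN1 was called in all 6 fits with a library left out, COL5A1 in 4, PDGFRA in 3 and COL1A1 in 2, and none of them by edgeR, where FN1 had an adjusted p of 0.091, or by limma voom. COL5A1 lost its call without Control replicate 1 or Sox8OE replicate 3 (adjusted p up to 0.052 by DESeq2), PDGFRA without Control replicate 1, Control replicate 3 or Sox8OE replicate 2 (log2 fold change as small as -1.44), and COL1A1 without Control replicate 1, Control replicate 3, Sox8OE replicate 2 or Sox8OE replicate 3 (as small as 1.57). Without Sox8OE replicate 1, 3 rose and 3 fell, the added genes being MMP2, a matrix metalloproteinase, at -2.60 and LUM, a matrix proteoglycan, at -1.86. The summed level of the list was 48359 to 50492 normalised counts in Control and 53386 to 57272 in Sox8OE. Summed levels, here and below, weigh deeply read genes most. Here the sum leans on FN1 and COL5A1, whose means rose from 2740 to 9446 and from 1610 to 6342, while the list median was under 0.

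**Figure D5:**
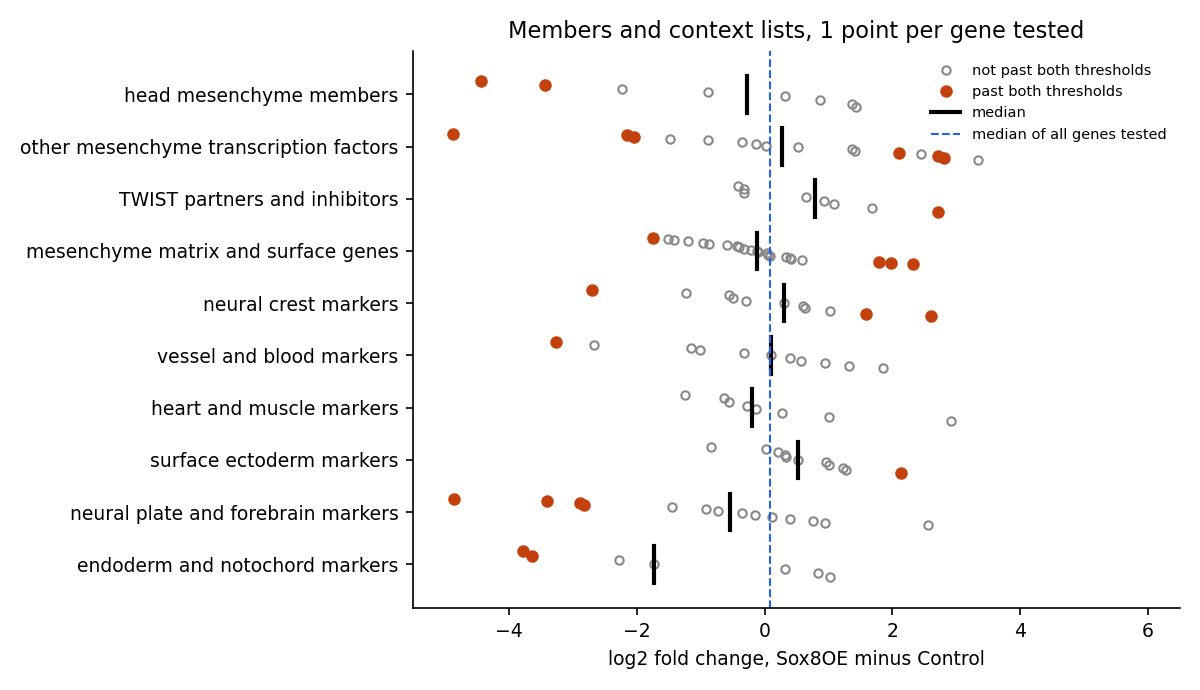
Log2 fold change of Sox8OE over Control (horizontal axis) for each tested gene of the members and of 9 lists of related or marker genes (rows); filled points passed both thresholds, black bars are list medians and the dashed line is the median of all genes tested, 0.079. Members, vessel, neural and endoderm rows have filled points on the left only, and TWIST partner and surface ectoderm rows on the right only. Other mesenchyme factors, matrix and crest rows have them on both sides, and the heart and muscle row has none.

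Markers of other cells that the sort could hold moved as well, and their part in the members' values was not tested. Of 11 neural crest markers, 2 rose and 1 fell: LMO4, a LIM-only cofactor (2.60 ± 0.68), and RXRG, a retinoid receptor (1.59 ± 0.47), rose, and CDH6, a cadherin of early crest and neural folds, fell from 945, 561 and 699 to 190, 104 and 45.2 normalised counts (-2.69 ± 0.53). CDH6 was called with any library left out, but no gene of this list was by edgeR, where CDH6 had an adjusted p of 0.091, or by limma voom. LMO4 stood at 253, 301 and 280 normalised counts in Control and at 276, 3368 and 1413 in Sox8OE, so its groups overlapped. It was not called without Sox8OE replicate 2 (1.59). RXRG was not called without Control replicate 1, Control replicate 3, Sox8OE replicate 2 or Sox8OE replicate 3 (as small as 1.25). The summed crest level was 12665 to 16590 in Control and 15167 to 24094 in Sox8OE. This sum leans on SOX10, which the paper also names as an otic factor. SOX10 stood at 3450 to 4629 in Control and 6514 to 9673 in Sox8OE (1.02 ± 0.32, not called). Of the other uncalled markers, TFAP2B, PAX7, ETS1 and SOX9 had fold changes under 0 and FOXD3, PAX3 and NGFR over 0.

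Of 11 tested vessel and blood markers, 0 rose and 1 fell by DESeq2, FLI1, an ETS factor of endothelium and crest, from 76.3, 77.7 and 63.7 to 9.47, 8.79 and 4.30 normalised counts (-3.26 ± 0.69, adjusted p = 0.00031 by DESeq2, 0.053 without Control replicate 1). It was not called by edgeR, with an adjusted p of 0.15, or by limma voom. With Sox8OE replicate 1 left out, 1 was higher and 1 lower, PECAM1, an endothelial adhesion gene, being added at 1.79. The summed level of the 12 in the table was 1061 to 1792 in Control and 889 to 2824 in Sox8OE, and TAL1, a blood and vessel factor, was at 0 in 3 libraries. Of 8 tested heart and muscle markers none passed both thresholds, by DESeq2, edgeR or limma voom. An unadjusted p under 0.05 by DESeq2 was found at 2 of them, and at 21.8% of all genes tested. The lowest adjusted p by DESeq2 belonged to MYOD1, the muscle determination factor, at 4.42, 11.8 and 4.61 in Control and 3.45, 63.7 and 91.4 in Sox8OE (2.92 ± 1.11), then to TNNT2, a troponin gene (1.01 ± 0.46), and ISL1, a LIM homeodomain factor (-0.56 ± 0.40). Without Sox8OE replicate 1, MYOD1 was called higher, at 3.45, and ACTC1, the cardiac actin gene, lower, at -1.62. The summed heart and muscle level was 4173 to 5547 in Control and 3812 to 4319 in Sox8OE. This sum leans on TNNC1, with means of 3182 in Control and 2637 in Sox8OE, and ISL1, with 1308 and 886. TNNT2, MYH7 and MYOD1 had fold changes over 0 and the other tested genes of the list under 0.

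Neural plate and forebrain markers held 4 called genes of 14 tested, all lower. NKX2-1, of the ventral forebrain, fell from 1378, 1281 and 1271 to 35.3, 85.7 and 15.1 normalised counts (-4.86 ± 0.55), and LHX9, a LIM homeodomain factor, fell from 1831, 1709 and 1239 to 216, 176 and 282 (-2.83 ± 0.36). Both were also called by edgeR. LHX2 (-2.89 ± 0.69) and FEZF1 (-3.41 ± 0.86) fell too; LHX2 was called with any library left out but not by edgeR (adjusted p = 0.17), and FEZF1 was not without Control replicate 1, Control replicate 2 or Sox8OE replicate 3 (adjusted p up to 0.13 by DESeq2). Without Sox8OE replicate 1, SOX21 was added as a higher gene, at 3.07. The summed level was 19347 to 24383 in Control and 14852 to 19934 in Sox8OE. PAX6, with means of 6580 in Control and 5928 in Sox8OE, and CDH2, with 5882 and 4612, made up most of this sum. Neither was called.

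Of 7 tested endoderm and notochord markers, 0 rose and 2 fell. SHH, the secreted signal of notochord and floor plate, fell from 204, 268 and 190.1 to 2.58, 23.1 and 28.0 normalised counts (-3.64 ± 0.71). FOXA1, a forkhead factor of endoderm, fell from 53.1, 81.6 and 82.1 to 6.03, 2.20 and 7.53 (-3.78 ± 0.77). Both were called with any library left out and neither by edgeR, at adjusted p of 0.11 and 0.13, or by limma voom. Of the uncalled markers tested, FOXA2 (-2.27 ± 0.87) and CHRD (-1.74 ± 0.61) had log2 fold changes under 0. TBXT (0.84 ± 0.78), NOTO (0.32 ± 0.82) and HHEX (1.03 ± 0.79) had log2 fold changes over 0. The summed level was 629 to 1233 in Control and 177 to 625 in Sox8OE, and SOX17, an endoderm factor, had at most 9 reads in any library. Of 11 surface ectoderm markers 1 rose, KRT18, a simple epithelial keratin (2.13 ± 0.51), which lost its call without Control replicate 1 or Control replicate 3 (adjusted p up to 0.054 by DESeq2) and was not called by edgeR (0.14) or limma voom. Without Sox8OE replicate 1, TFAP2A was added, at 1.58. The summed ectoderm level was 26695 to 30411 in Control and 33474 to 47888 in Sox8OE. EPCAM made up the largest part of this sum, but its mean differed little, 16318 in Control and 16664 in Sox8OE (0.03 ± 0.43, not called). Means rose more at KRT18 (1320 to 5777), DLX5 (1802 to 4245) and KRT7 (1518 to 2972). TP63 alone had a lower mean in Sox8OE, 258 against 462 in Control. EPCAM was at 15872 to 16766 in Control and at 27325, 10127 and 12539 in Sox8OE replicates 1, 2 and 3. KRT18 was at 892 to 2102 in Control and at 2852, 8927 and 5552 in Sox8OE.

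The genes whose values ran most like ALX1 over the 6 libraries were sought among 9758 named genes with a mean of at least 50 normalised counts, by Pearson r of variance-stabilised counts. They were FST (r = 0.997), UTP11 (0.993), CRYBB2 (0.993), NBN (0.992) and PCDH18 (0.991). FST, which encodes the activin and BMP antagonist follistatin, stood at 5026, 4156 and 3917 normalised counts in Control and at 1032, 462 and 727 in Sox8OE, a log2 fold change of -2.56 ± 0.38. CRYBB2, a lens crystallin gene, and PCDH18, a protocadherin gene, had log2 fold changes of -3.01 ± 0.52 and -1.95 ± 0.36 and were past both thresholds. UTP11 (-0.46) and NBN (-0.44) were not called, so that likeness in shape did not go with likeness in size.

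The genes most like TWIST1 were SDSL (r = 0.984), SLC43A3 (0.983), TMEM204 (0.980), POU2F1 (0.979) and CNTN4 (0.979). TMEM204 stood at 268, 312 and 285 normalised counts in Control and at 47.4, 65.9 and 80.6 in Sox8OE (-2.16 ± 0.41), and CNTN4, a contactin gene, at 424, 479.5 and 419 against 142, 115 and 142 (-1.73 ± 0.34). Both were past both thresholds, while SDSL (-1.21), SLC43A3 (-1.36) and POU2F1, an octamer-binding factor (-0.73), were not. None of the 5 genes was shared with those most like ALX1. All libraries share the group difference, so these r values mostly describe it and carry no p.

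The genes next to the members in the genome were read as well. The 2 protein-coding genes on each side were taken from the RefSeq gene order of assembly GRCg7b, which is not the build of the counts, and 28 of 36 neighbours were matched by name and 26 tested. None passed both thresholds by DESeq2, edgeR or limma voom, and 4.28% of all genes tested did by DESeq2. With so few neighbours this is not read as a result about them. By DESeq2, 4 had an unadjusted p under 0.05, a value that 21.8% of all genes tested had. Without Sox8OE replicate 1, 5 were called, where 18.2% of all genes tested were. Directly beside TWIST1, HDAC9 was not matched and FERD3L was not tested. TWISTNB, at place 2 from TWIST1, had a log2 fold change of -0.45 ± 0.31, and RASSF9, beside ALX1, one of 0.09 ± 0.42. PTGES, a prostaglandin synthase gene beside PRRX2, had -1.57 ± 0.95, and its values of 44.2, 80.8 and 33.2 normalised counts in Control and 3.45, 39.6 and 10.8 in Sox8OE had the same order of libraries as PRRX2. SOST, beside MEOX1, had -1.94 ± 0.76, opposite in sign to MEOX1.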

How the data were processed

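RNA of 3 Control and 3 Sox8OE samples was sequenced. The authors trimmed reads with Trim Galore, aligned them to GalGal6 with STAR in the nf-core pipeline, and deposited raw counts per Ensembl gene from featureCounts. The annotation release, strand setting and treatment of shared reads are not given in the sources used here, so counts of overlapping or antisense genes and of paralogues are uncertain. Groups came from sample titles.

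The main test was DESeq2 1.42.0 (R 4.3.3) on counts, with group as the only term, two-sided, Benjamini-Hochberg adjusted over all genes, called where the adjusted p was under 0.05 and the log2 fold change beyond 1.5 either way. Of 24356 genes, 2945 had no count and 5379 with counts got no adjusted p. Alternatives were edgeR 4.0.16, limma 3.58.1 voom, TMM scaling, a count filter (10 reads in 3 samples), other filters and thresholds, a replicate block and leaving out each library.

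Members and gene lists were chosen with earlier results of these data known. All members were named. From each list up to 6 called genes per direction were named, or, with none, the 3 with the smallest adjusted p, along with SOX8 and the 5 genes most like ALX1 and TWIST1. Neighbours, genes near zero and genes added by leaving out Sox8OE replicate 1 were named after their values were seen. So were TP63, CDH2 and the uncalled crest, endoderm and notochord markers. EPCAM, CDH1, HAND1 and HAND2 were also named outside the rule. Listed genes without a match by name were not analysed here, and LHX2 was matched as LH-2A. No sequences were used here.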

Additional observations from a re-analysis of the deposited data

How the results depend on the processing

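The count of genes past both thresholds was 686 with DESeq2, of which 77.6% were higher. It was 41 with edgeR, 33 with limma voom and 248 to 3050 with 1 library left out, lowest without Control replicate 1 and highest without Sox8OE replicate 1. Of the members, 2 were called with DESeq2, 1 (ALX1) with edgeR, 1 (ALX1) with limma voom, and 2 to 4 with a library left out. TMM scaling, the count filter, other filters and lower fold thresholds gave 595 to 840 genes. No member tested changed sign in any alternative that kept it; the cause of the lower counts was not tested. TMM moved the median of all genes tested from 0.079 to 0.058.

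With the replicate block 1274 genes were called, 59.3% of them higher, and 3 members, PRRX2 being added at -3.03. Deviations of same-numbered samples from their group means had correlations of 0.288, 0.297 and 0.072 for replicates 1, 2 and 3. Differently numbered samples had -0.282 to 0.074, the highest being Sox8OE replicate 3 with Control replicate 2, just over the value of replicate 3. Deviations within a group cancel, so these correlations depend on each other and do not decide whether samples were paired. The labels give no pairing beyond the number, and whether same-numbered samples shared a batch was not tested.

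TWIST2 and ALX4 rest on few reads in both groups. In Sox8OE, TWIST1 had 15 to 17 reads per library, ALX1 had 7 in replicate 2, and PRRX2 had 1 and 9 in replicates 1 and 3. Having 3 libraries per group limits every value.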
